A study of Mus musculus with 12 samples.

Results

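The p53 pathway and the cyclin-dependent kinase inhibitors of cellular senescence were represented by 9 genes, of which 5 could be measured on the arrays: Cdkn2a, Cdkn2b, Mdm2, Ccng1 and Lmnb1. A gene was read from a probe set that listed 1 gene symbol and no other (the one with the highest mean signal if there were several), and each of the 5 had 1 such probe set. The only probe set that lists Cdkn1a also lists a second transcript, so that no value is given for this gene, and Trp53, Gdf15 and Bax were not analysed here. The 5 genes are part of 19938 genes named in this way over the whole array, of which 11948 had an intensity over 50 on at least 1 array.

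Total RNA of mucosal scrapings was measured on 12 arrays, taken from 3 parts of the small intestine (proximal, middle, distal) of male mice of the C57BL/6J strain. Old mice were 21 months and young mice 4 months of age, and both age groups received either a high-fat diet (HF, 45% of energy from fat) or a low-fat diet (LF, 10%) for 2 weeks. RNA of 8 mice was pooled for an old array and of 6 mice for a young array. Every pool of mice gave all 3 segments, and there were 4 pools (old HF, old LF, young HF, young LF) from 28 mice. Each combination of segment, age and diet thus had 1 array, the spread between animals was not measured, and in such bulk RNA fewer cells of a type and less RNA per cell cannot be told apart.

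When DNA is damaged or oncogenes are active, the transcription factor p53 (encoded by Trp53) is stabilised and switches on genes that halt the cell cycle, repair DNA or start apoptosis. Its level is held down by Mdm2, a ubiquitin ligase that is itself a p53 target, which closes a feedback loop. Senescent cells have left the cell cycle for good: they express inhibitors of cyclin-dependent kinases such as Cdkn1a, Cdkn2a and Cdkn2b, lose the nuclear lamina protein lamin B1 (Lmnb1) and secrete cytokines, growth factor binding proteins and matrix proteases. The intestinal epithelium is renewed every few days from dividing cells in the crypts, and the villi hold cells that have left the cycle to differentiate.

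The starts of 3 of the genes are shown because Mdm2 and Ccng1 are textbook p53 targets and Cdkn2b is the kinase inhibitor with a clear level here. The windows run from 250 bases before to 50 bases after a start site of the RefSeq annotation of build GRCm38.p6, all on the minus strand: chr4:89310983-89311282 for Cdkn2b, chr10:117710709-117711008 for Mdm2 and chr11:40755237-40755536 for Ccng1. Capitals mark the motifs that were searched on both strands, namely the GC box (GGGCGG), the CCAAT box (CCAAT), the cAMP response element (TGACGTCA), the TATA box (TATAAA) and the p53 half-site.
Cdkn2b: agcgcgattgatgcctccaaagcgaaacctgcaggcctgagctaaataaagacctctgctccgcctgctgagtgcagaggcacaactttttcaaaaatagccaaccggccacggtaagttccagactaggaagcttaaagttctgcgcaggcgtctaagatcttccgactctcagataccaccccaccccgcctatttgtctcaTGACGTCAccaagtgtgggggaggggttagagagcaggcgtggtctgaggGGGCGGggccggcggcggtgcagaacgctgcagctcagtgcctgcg
Mdm2: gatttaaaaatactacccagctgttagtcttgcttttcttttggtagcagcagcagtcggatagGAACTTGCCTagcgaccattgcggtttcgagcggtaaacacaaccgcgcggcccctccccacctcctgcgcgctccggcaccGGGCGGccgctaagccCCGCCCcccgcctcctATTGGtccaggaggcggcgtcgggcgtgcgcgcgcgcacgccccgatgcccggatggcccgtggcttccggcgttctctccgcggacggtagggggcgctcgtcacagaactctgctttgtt
Ccng1: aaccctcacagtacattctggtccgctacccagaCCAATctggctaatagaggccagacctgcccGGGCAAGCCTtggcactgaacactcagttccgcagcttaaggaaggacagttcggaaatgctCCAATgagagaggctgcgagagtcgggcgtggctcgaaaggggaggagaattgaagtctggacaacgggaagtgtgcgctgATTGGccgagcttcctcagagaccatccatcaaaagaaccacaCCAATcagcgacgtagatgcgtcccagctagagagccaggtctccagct
The Mdm2 window held 1 p53 half-site, at positions -186 to -177 from the start, and the Ccng1 window 1, at -185 to -176, where -1 is the base before the start. The half-site occurred in 8.36% of the 32851 mouse promoter windows of this length, and the Cdkn2b window held none. The Ccng1 window also had 4 CCAAT boxes, a motif found in 37.4% of windows. The Mdm2 window had 2 GC boxes, found in 35.7% of windows, and 1 CCAAT box. The Cdkn2b window had 1 GC box and 1 cAMP response element, which occurred in 1.79% of windows. CpG dinucleotides numbered 18 in the Cdkn2b window, 35 in the Mdm2 window and 14 in the Ccng1 window, against a median of 7 over all windows. None of the 3 windows held the TATA box letters, which 13.6% of windows did. A match describes letters only and shows no binding.

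Markers of the distal segment followed the segment labels, and those of the proximal segment did so in part. Of 6 proximal markers, 4 fell and 1 rose in distal against proximal (66.7% and 16.7%, against 27.5% and 27.3% of all genes). Markers of the distal small intestine (Fabp6, Slc10a2 and 4 others) had mean log2 intensities of 7.50 to 7.97 on the proximal arrays, 8.79 to 10.01 on the middle arrays and 11.56 to 11.71 on the distal arrays. The proximal arrays also carried pancreatic RNA: 27 acinar genes averaged 10.02 to 11.32 on the 4 proximal arrays, 5.63 to 6.39 on the middle arrays and 5.55 to 5.59 on the distal arrays. The old HF distal array stood apart from the other 3 distal arrays in several cell type lists, for example Paneth cell markers at 9.43 against 10.16 to 10.39, and B cell markers at 5.62 against 6.27 to 6.44.

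Cdkn2a encodes 2 proteins from shared exons, the CDK4 and CDK6 inhibitor p16 and the Mdm2-binding protein Arf, and is the classical marker of senescent cells in aging tissue. It was the member under the intensity limit of 50, on 11 of the 12 arrays. Its intensities were 45.6, 47.0 and 45.3 in the proximal, middle and distal segments of old HF mice and 47.5, 40.7 and 43.7 in those of old LF mice. In young HF mice they were 46.7, 46.9 and 53.2, and in young LF mice 42.8, 48.2 and 42.6. The 1 array over 50 was thus the distal segment of young HF mice, and no old array passed the limit. Cdkn2a was kept for testing through this array alone. Its segment, age and diet differences draw on the same value and give no support for a change. The signal spanned 0.39 on the log2 scale over all 12 arrays, and the table gives no background reading to set it against. The segment differences of Cdkn2a were 0.00 (middle minus proximal) and 0.01 (distal minus middle and distal minus proximal, limma adjusted p = 0.904 or more), and the last 2 were below 0 after quantile normalization. The single probe set does not separate the p16 and Arf transcripts.

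Cdkn2b, the neighbour of Cdkn2a on chromosome 4, encodes p15, which inhibits CDK4 and CDK6 and is induced by TGF-beta in epithelial cells. Its log2 intensities in the proximal, middle and distal segments were 9.09, 9.68 and 10.06 in old HF mice and 9.08, 9.47 and 9.98 in old LF mice. They were 9.06, 9.64 and 10.03 in young HF mice and 8.90, 9.36 and 10.00 in young LF mice. All 4 pools showed the same order of segments, and the arrays of neighbouring segments did not overlap. The proximal mean was 9.03 ± 0.09, the middle mean 9.54 ± 0.15 and the distal mean 10.02 ± 0.03 (SD, n = 4 arrays each). Cdkn2b was 1.98-fold higher in the distal than in the proximal segment, a log2 difference of 0.98 (SE 0.06, 95% interval 0.85 to 1.12, limma adjusted p = 4.8e-07).

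The step between middle and proximal was 0.51 on the log2 scale (adjusted p = 0.000228) and that between distal and middle 0.48 (adjusted p = 0.000211, both limma). Cdkn2b intensity thus ran from 478 on the lowest array, young LF proximal, to 1067 on the highest, old HF distal.

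Lmnb1 encodes lamin B1, a filament protein under the nuclear envelope whose loss marks senescent cells. It lies on chromosome 18. Its log2 intensities in the proximal, middle and distal segments were 7.01, 7.76 and 8.21 in old HF mice and 6.87, 7.63 and 8.27 in old LF mice. They were 7.05, 7.87 and 8.29 in young HF mice and 7.02, 7.86 and 8.22 in young LF mice. The segments did not overlap here either, and distal was highest in each pool. The means were 6.99 ± 0.08, 7.78 ± 0.11 and 8.25 ± 0.04 from proximal to distal (SD, n = 4 arrays each). The distal over proximal difference was 1.26 (SE 0.06, 95% interval 1.13 to 1.39, limma adjusted p = 7.34e-08), or 2.39-fold. The step from proximal to middle, at 0.79 (adjusted p = 1.09e-05), exceeded that from middle to distal, at 0.47 (adjusted p = 0.000205), without a test of the 2 steps against each other.

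Mdm2 ran the other way along the intestine. Its log2 intensities in the proximal, middle and distal segments were 9.35, 8.88 and 8.67 in old HF mice and 9.25, 8.88 and 8.64 in old LF mice. They were 9.29, 8.93 and 8.54 in young HF mice and 9.32, 8.90 and 8.61 in young LF mice. The proximal arrays were highest and the distal arrays lowest in every pool, again with no overlap between segments. The means were 9.30 ± 0.04, 8.90 ± 0.02 and 8.61 ± 0.06 from proximal to distal (SD, n = 4 arrays each). Mdm2 was lower in the distal than in the proximal segment by a log2 difference of -0.69 (SE 0.05, 95% interval -0.80 to -0.58, limma adjusted p = 1.84e-06), a ratio of 0.62.

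The middle over proximal difference of Mdm2 was -0.40 (adjusted p = 0.000346) and the distal over middle difference -0.28 (adjusted p = 0.00183, both limma). Acinar genes ran in the same order as Mdm2, with means of 10.02 to 11.32 on the proximal, 5.63 to 6.39 on the middle and 5.55 to 5.59 on the distal arrays, and the part of pancreatic RNA in the Mdm2 differences was not tested.

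Ccng1 encodes cyclin G1, a p53 target that recruits phosphatase 2A to Mdm2. It had the smallest range of the 5 measured genes, 0.29 on the log2 scale, at intensities of 1069 to 1309. Its log2 intensities in the proximal, middle and distal segments were 10.30, 10.20 and 10.22 in old HF mice and 10.31, 10.28 and 10.28 in old LF mice. They were 10.25, 10.18 and 10.06 in young HF mice and 10.35, 10.25 and 10.21 in young LF mice. The segments overlapped, and the distal over proximal difference of -0.11 (95% interval -0.22 to 0.00, limma adjusted p = 0.0861) did not pass the test. This value was 0.05, of the opposite sign, after quantile normalization of the genes kept, and passed the test at an adjusted p of 0.0468 with an intensity trend and robust variance. The 2 p53 targets among the members thus differed in their calls along the intestine, a difference between genes that was not tested.

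**Figure D1:**
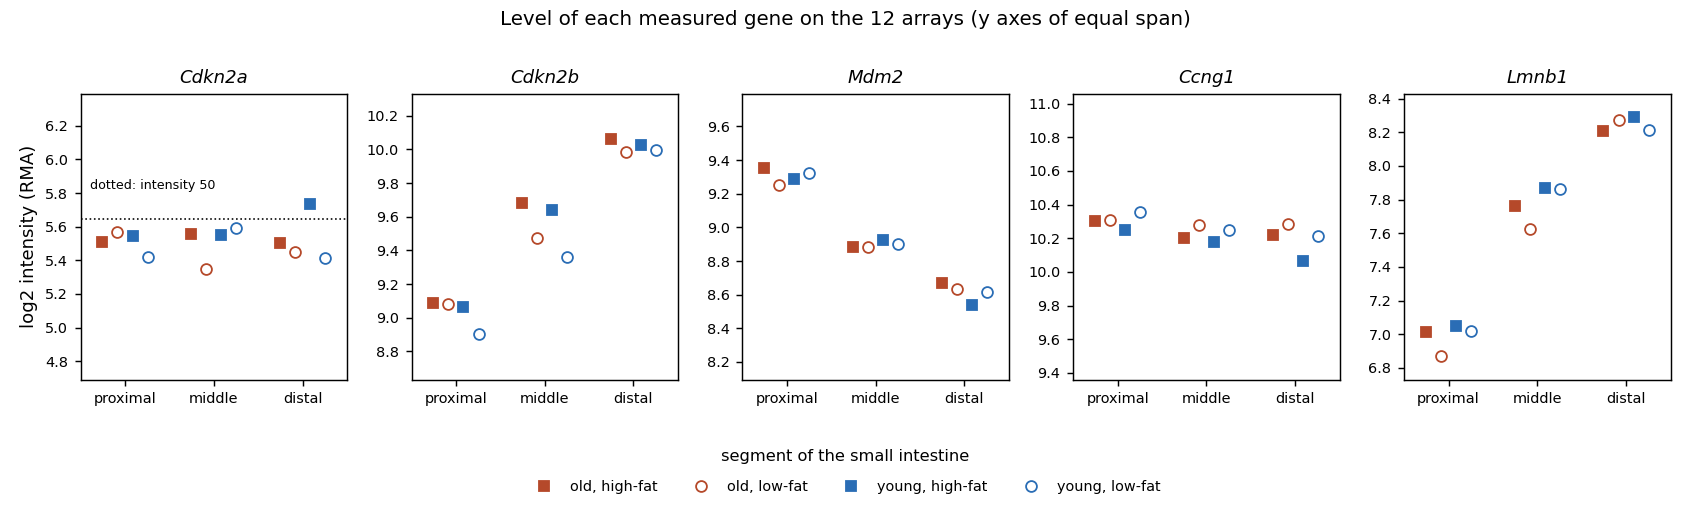
Log2 intensity (y axis, equal span in each panel) of the 5 measured genes by segment (x axis), 1 point per array, with old mice in red and young mice in blue, and high-fat as filled squares and low-fat as open circles. Cdkn2b and Lmnb1 rise and Mdm2 falls from proximal to distal with no overlap of the 4 arrays per segment, Ccng1 stays between 10.06 and 10.35, and Cdkn2a lies below the dotted line at intensity 50 on all arrays but 1.

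Of the 5 members, 3 were called in each of the 3 comparisons of segments (adjusted p under 0.05). Over all 11922 genes tested, 54.8% were called between distal and proximal, 25.0% between middle and proximal and 34.6% between distal and middle, so that a call between segments is common. The share of genes whose 4 arrays per segment were fully ordered, as for Cdkn2b and Lmnb1 (4.55% of genes upwards) and Mdm2 (4.83% downwards), was 9.38% in either order.

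Without the old HF distal array, which stood apart in its cell type markers, the distal over proximal differences were 1.00 for Cdkn2b, 1.27 for Lmnb1 and -0.70 for Mdm2, all past the test. Markers of other cell types changed along the intestine as well. Smooth muscle markers averaged 6.17 to 6.78 on the proximal, 6.55 to 7.10 on the middle and 6.94 to 8.23 on the distal arrays. All 12 of them rose in distal against proximal, where 27.3% of all genes did. Paneth cell markers averaged 9.43 to 10.39 on the distal and 7.71 to 8.22 on the proximal arrays. T cell markers (6.82 to 7.41 distal, 7.69 to 7.81 proximal) and myeloid markers (6.72 to 7.26 distal, 7.35 to 7.81 proximal) ran the other way. Their part in the differences of Cdkn2b, Lmnb1 and Mdm2, and that of the pancreatic RNA on the proximal arrays, was not tested.

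The genes whose pattern was most like each member over the 12 arrays share its segment order. For Cdkn2b the highest Pearson correlations were with Kcnn4 (0.987), Ppp2cb (0.986) and Pyy (0.984), the last a hormone of enteroendocrine cells. For Lmnb1 they were with Gdpd1, Mgat4c (both 0.993) and the maintenance DNA methyltransferase Dnmt1 (0.992). For Mdm2 they were with Ap1s3, Sult6b2 (both 0.987) and Zfp410 (0.986). The points come from 3 segments of 4 pools, so that these values mostly describe the order of the segments.

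As means over the 3 segments of each pool, none of the 5 members passed the test between old and young, where 2.91% of all genes were called. The log2 differences, old minus young, were 0.06 for Cdkn2b (95% interval -0.05 to 0.18), 0.05 for Ccng1 (-0.07 to 0.16), 0.01 for Mdm2 (-0.10 to 0.13), -0.05 for Cdkn2a (-0.17 to 0.06) and -0.09 for Lmnb1 (-0.21 to 0.02). Their limma adjusted p-values ran from 0.366 for Lmnb1 to 0.912 for Mdm2. Cdkn2a passed the intensity limit only through the young HF distal array, which is part of its difference. For the 4 members over the limit of 50 these intervals ran between ratios of 0.87, the lower end for Lmnb1, and 1.13, the upper end for Cdkn2b. They hold for the mean of the 3 segments, do not measure the spread between like pools or mice, and were wider within a segment. Without the distal segment the differences were -0.13 for Lmnb1 and -0.02 for Mdm2, so that Mdm2 turned its sign, and none passed the test. The intervals rest on 4 pools and 1 residual degree of freedom beside the variance shared over genes.

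Lmnb1 had the largest of these differences. In the middle segment it was 7.76 and 7.63 in old mice (HF and LF), against 7.87 and 7.86 in young mice, a difference of -0.17 (95% interval -0.35 to 0.01, limma adjusted p = 0.593). The old arrays were lower in 5 of the 6 pairs that share segment and diet. The exception was the distal segment of LF mice, with 8.27 in old and 8.22 in young mice. Among the other members, Cdkn2b was below 0 for old minus young only in the distal segment of LF mice (-0.01). Ccng1 was below 0 only in the proximal segment of LF mice (-0.05). The 6 pairs come from 4 pools and are not 6 repeats, and the share of all genes with such signs was not counted. None of the 25 cycling cell markers was called for age over the pool means, where 2.91% of all genes were. For old minus young 23 of them lay below 0 (92.0%, against 44.6% of all genes). Their median was -0.10, against 0.01 over all genes tested. Without the distal segment 17 of the 25 were below 0, with a median of -0.03.

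Within the segments no member was called for age either, where the share of genes called was 0.109% proximal, 0.0252% middle and 0.654% distal. For Cdkn2b the differences were 0.10 proximal, 0.08 middle and 0.01 distal. For Ccng1 they were 0.00, 0.03 and 0.11, and for Mdm2 0.00, -0.03 and 0.08. The contrasts of the age difference between segments called no member. They called 0.0252% of genes between middle and proximal and none between distal and the other segments at an adjusted p under 0.05, with 1383 genes at an unadjusted p under 0.05 for distal minus middle and 1054 for distal minus proximal. Between single arrays that differ only in age or only in diet, no member differed by 2-fold. For age this threshold was passed by 0.201% and 0.218% of genes proximally (HF and LF), 0.193% and 0.109% in the middle segment and 0.554% and 0.235% distally. For diet it was passed by 0.277% and 0.411% proximally (old and young), 0.554% and 0.461% in the middle segment and 0.596% and 0.185% distally. The age differences of single pairs lay between -0.25, for Cdkn2a in the middle segment of LF mice, and 0.18, for Cdkn2b in the proximal segment of LF mice.

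**Figure D2:**
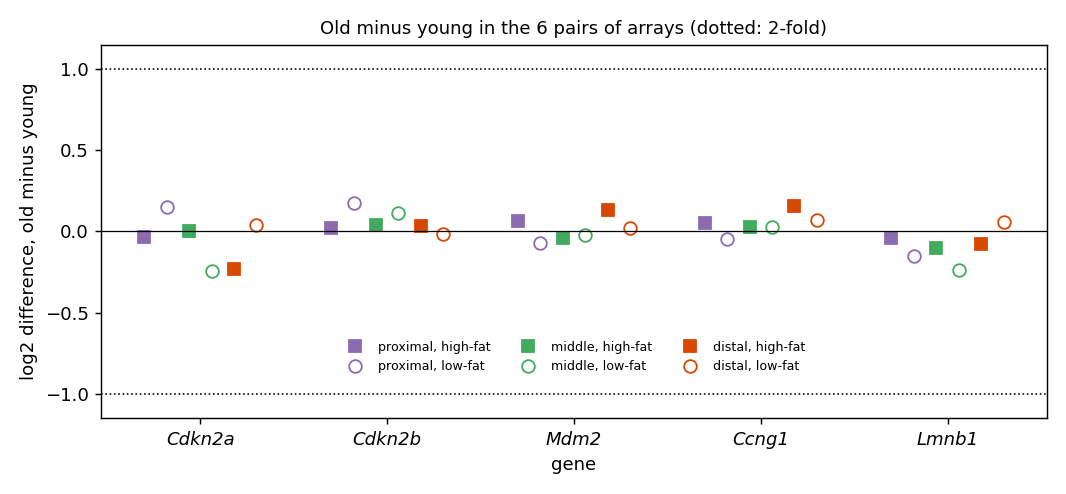
Log2 difference, old minus young (y axis), of each gene (x axis) in the 6 pairs of arrays that share segment (colour) and diet (filled squares high-fat, open circles low-fat), with dotted lines at 2-fold. All values lie between -0.25 and 0.18, and each gene has values on both sides of 0.

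No member was called for diet over the pool means, where 5.7% of all genes were. Cdkn2b came closest, with a difference, HF minus LF, of 0.13 (95% interval 0.01 to 0.24, limma adjusted p = 0.18). Its sign was positive in all 6 pairs that share segment and age, by as little as 0.006 in the proximal segment of old mice. The pairs come from 4 pools and are not 6 repeats, and the share of all genes with 6 like signs was not counted. The diet difference of Cdkn2b was largest in the middle segment. Old mice had 9.68 there on HF against 9.47 on LF, and young mice 9.64 on HF against 9.36 on LF. The mean difference there, HF minus LF, was 0.25 (95% interval 0.07 to 0.42), a ratio of 1.19, at a limma adjusted p of 0.147. Cdkn2b was thus not called in the middle segment, where 2.54% of all genes were. An intensity trend with a robust variance put the same difference at an adjusted p of 0.0367. In the proximal segment the difference was 0.08 and in the distal segment 0.05.

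The diet difference of Cdkn2a was 0.10 (adjusted p = 0.266), that of Ccng1 -0.08 (adjusted p = 0.37), that of Lmnb1 0.05 (adjusted p = 0.527) and that of Mdm2 0.01 (adjusted p = 0.946, all limma, HF minus LF over the pool means). The value of Cdkn2a includes the young HF distal array, through which alone this gene passed the intensity limit. Ccng1 was lower on HF in all 6 pairs, by 0.01 to 0.15, but these pairs come from 4 pools and are not 6 repeats. The share of all genes with 6 like signs was not counted, and 55.3% of all genes lay below 0 over the pool means. Within segments the share of genes called for diet was 0.319% proximal, 2.54% middle and 0.528% distal, and no member was called. The diet difference between segments called no member either, with 0.0252% of genes for middle minus proximal, 0.0755% for distal minus middle and 0.0503% for distal minus proximal. For Cdkn2b the diet difference was smaller by 0.19 in the distal than in the middle segment (limma adjusted p = 0.458).

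**Figure D3:**
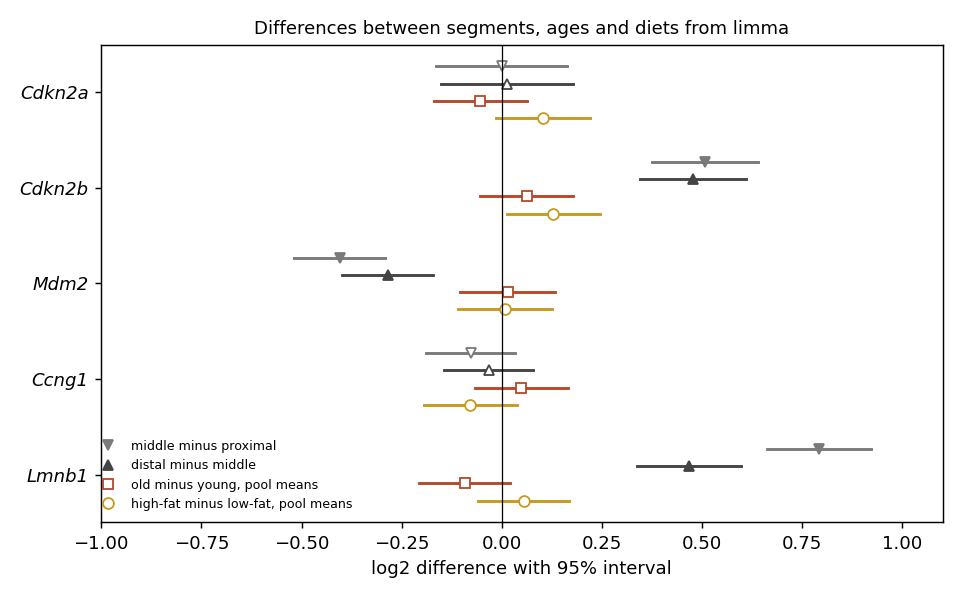
Log2 differences (x axis) with 95% intervals (bars) of the 5 genes (y axis) between neighbouring segments, ages and diets, filled where the limma adjusted p is under 0.05. Only the segment differences of Cdkn2b, Mdm2 and Lmnb1 are filled, and the intervals for age and diet of all 5 genes lie between -0.21 and 0.24.

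The wider p53 response was read from 37 target genes outside the members, in a list of apoptosis genes and a list of arrest, repair and metabolism genes, of which 32 passed the intensity limit. Between distal and proximal 7 rose and 11 fell, that is 21.9% and 34.4%, where 27.3% of all genes rose and 27.5% fell. The list medians of 0.03 for the apoptosis genes and 0.04 for the arrest, repair and metabolism genes lay close to the median of 0.02 over all genes. Calls in the p53 target lists thus went in both directions.

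Those lower in distal included the death receptor Fas (-0.75), and the kinases Plk2 (-0.56) and Plk3 (-0.50). Those higher in distal included Trp53i11 (0.80), the BH3-only protein Bid (0.65), the translesion polymerase Polk (0.54) and the mitotic protein Gtse1 (0.48). Mdm2, at -0.69, thus lay next to Fas at the lower end of the p53 targets.

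Between old and young no p53 target was called among the 32 over the pool means, where 2.91% of all genes were, nor within any segment. Gtse1 came closest, at -0.23 (limma adjusted p = 0.0636). The list medians were 0.02 for the apoptosis genes and 0.00 for the arrest, repair and metabolism genes, against 0.01 over all genes tested. With the diet 4 of the 32 fell over the pool means and none rose, where 3.15% of all genes fell and 2.54% rose. The 4 were the damage-binding protein Ddb2 (-0.30), the ribonucleotide reductase subunit Rrm2b (-0.28), the stress protein Gadd45a (-0.27) and the BH3-only protein Pmaip1 (-0.24). Their limma adjusted p-values lay between 0.0203 and 0.0386, and none of the 4 was called without the intensity filter or without the middle segment. The share that fell, 12.5%, was the same among the 16 secreted factors treated below. Of these, 2 fell with the diet, Ccl20 (-0.31) and Mmp13 (-0.29), and none rose. Smooth muscle markers fell with the diet for 4 of 12 genes, namely Actg2 (-0.44), Acta2 (-0.36), Myl9 (-0.34) and Myh11 (-0.28), and 1 of 11 fibroblast and matrix markers, Ogn (-0.31), fell. Of 11 enterocyte markers, Fabp1 (0.53) and Apoa4 (0.50), which handle dietary fat, rose. On the single arrays the smooth muscle mean was 6.24 to 7.92 on HF and 6.17 to 8.23 on LF, and the enterocyte mean 12.02 to 12.31 on HF and 11.74 to 12.27 on LF. The part of these cell types in the 4 p53 targets was not tested.

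Of 18 regulators of p53 and kinases that sense DNA damage, 6 rose and 3 fell between distal and proximal, with a median of 0.07. These shares of 33.3% and 16.7% compare with 27.3% and 27.5% of all genes. The kinases Atm (0.74), Chek1 (0.70) and Atr (0.57) were higher in distal, and the kinase Hipk2 (-0.48) was lower. None of the 18 was called for age, where 2.91% of all genes were over the pool means. Atm was at 0.19 (limma adjusted p = 0.0989). Of 10 BCL2 family genes, which decide with Bax whether a cell enters apoptosis, 4 fell and 1 rose in distal (40.0% and 10.0%, against 27.5% and 27.3% of all genes), namely Bok (-0.58), the BH3-only proteins Bcl2l11 (-0.56) and Bad (-0.46), Bcl2l1 (-0.21) and, as the 1 that rose, Bcl2 (0.17). Bcl2l11, which encodes Bim, also fell with the high-fat diet by 0.55 (limma adjusted p = 0.00216), a call that was lost without the middle segment. None of the 10 was called for age, where 2.91% of all genes were over the pool means.

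Of 21 inhibitors, cyclins, kinases and RB pathway genes, 11 rose and 4 fell between distal and proximal, with a median of 0.22. These shares of 52.4% and 19.0% compare with 27.3% and 27.5% of all genes. The cyclins Ccnd1 (2.14) and Ccnd2 (1.23) and the kinases Cdk6 (0.69), Cdk2 (0.69) and Cdk4 (0.59), of which Cdk4 and Cdk6 are inhibited by p15, rose together with Cdkn2b. The inhibitor Cdkn2c rose by 0.37, whereas the inhibitor Cdkn1c (-0.41) and the cyclin Ccne2 (-0.72) were lower. None of the 21 was called for age, where 2.91% of all genes were over the pool means.

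The median of the 18 nuclear lamina and chromatin proteins was 0.33 between distal and proximal. Of these genes 12 rose and 1 fell (66.7% and 5.56%, against 27.3% and 27.5% of all genes). Among them were the DNA damage histone H2ax (1.01), the chromatin protein Hmgb2 (0.84), the lamin B receptor Lbr (0.83) and Lmna (0.76), which encodes lamins A and C, whereas Lmnb2, the gene of the other B-type lamin, rose by 0.18. Banf1 fell by 0.26. Cycling cell markers rose for 24 of 25 genes (96.0%, against 27.3% of all genes), by up to 1.22 for Ccna2. Only Rrm2 fell, and the median was 0.86. The difference of Lmnb1, at 1.26, was above those of all 25.

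On the level of arrays, the mean log2 intensity of the 25 cycling cell markers was 6.78 to 6.90 on the proximal, 7.33 to 7.58 on the middle and 7.34 to 7.77 on the distal arrays. Lmnb1 and this mean were both lowest in the proximal segment. They parted on the old HF distal array, where the marker mean was 7.34, at the level of the middle segment, while Lmnb1 was 8.21, within 0.08 of the 3 other distal arrays. The marker mean of these 3 was 7.68 to 7.77. Crypt stem cell markers were higher in distal as well, for 7 of 8 genes (87.5%, against 27.3% of all genes). Among them were Olfm4 (1.16) and Lgr5 (0.91). How far the share of crypt cells sets the level of Lmnb1 was not tested.

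**Figure D4:**
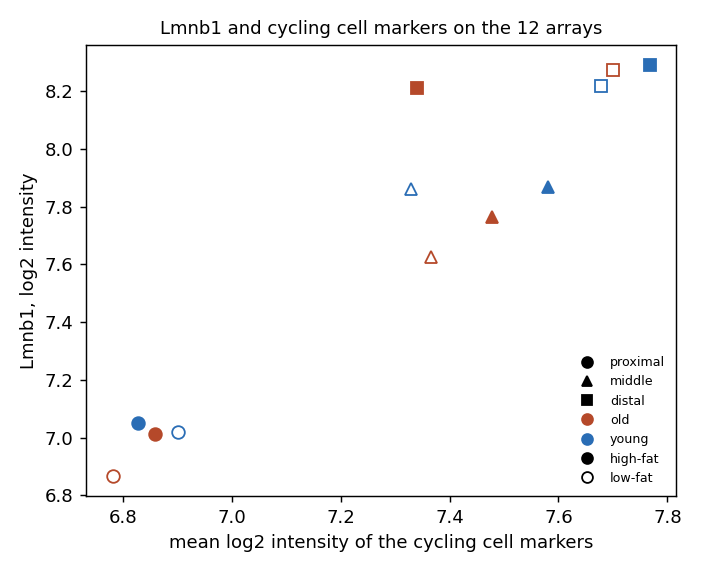
Lmnb1 (y axis, log2 intensity) against the mean log2 intensity of 25 cycling cell markers (x axis) on the 12 arrays, with shapes for segments, colours for ages and filled symbols for the high-fat diet. The 4 proximal arrays lie lowest on both axes, and the old HF distal array has a marker mean of 7.34 at a Lmnb1 level of 8.21.

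Of 31 secreted factors described for senescent cells, 28 were measured and 16 passed the intensity limit. Between distal and proximal 2 of the 16 rose and 9 fell (12.5% and 56.2%, against 27.3% and 27.5% of all genes), with a median of -0.39. The matrix proteases Mmp10 (-1.51) and Mmp13 (-0.85) and the cytokine Csf2 (-0.85) were lower, and the growth factor binding protein Igfbp5 (1.13) was higher.

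Between old and young 1 of the 16 rose and 5 fell over the pool means, where 0.763% of all genes rose and 2.15% fell. Csf2 rose by 0.35 (limma adjusted p = 0.0185). The 5 that fell were Igfbp7 (-0.57, adjusted p = 0.00476), Mmp13 (-0.40), the protease Plau (-0.39), Mmp10 (-0.38) and Igfbp5 (-0.35). Of the 16, 1 fell without the distal segment, 2 without the intensity filter and 2 without the proximal segment. Genes of muscle and connective tissue were lower in old mice too, and so were some of other cell types. Smooth muscle markers fell for 10 of 12 genes, with a median of -0.67. Fibroblast and matrix markers fell for 10 of 11, with a median of -0.44. Endothelial markers fell for 5 of 8 genes, myeloid markers for 5 of 10 and T cell markers for 1 of 8, and none of these rose. None of 7 B cell and 11 enterocyte markers was called. Without the distal segment the smooth muscle markers fell for 7 of 12 genes and the fibroblast and matrix markers for 1 of 11, and without the intensity filter for 8 and 6. The smooth muscle mean was 6.94 and 7.44 on the old distal arrays (HF and LF), against 7.92 and 8.23 on the young ones. The part of these tissues and cell types in the secreted factors was not tested.

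Genes of the integrated stress response, the pathway that with p53 controls Gdf15, gave 8 rises and 2 falls of 16 between distal and proximal. These shares of 50% and 12.5% compare with 27.3% and 27.5% of all genes, and the median was 0.22. The serine and asparagine synthesis genes Psat1 (0.76) and Asns (0.54) and the mitochondrial folate enzyme Mthfd2 (0.51) were higher, and the pseudokinase Trib3 (-0.73) was lower. None of the 16 was called for age or for diet over the pool means, where 2.91% and 5.7% of all genes were.

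**Figure D5:**
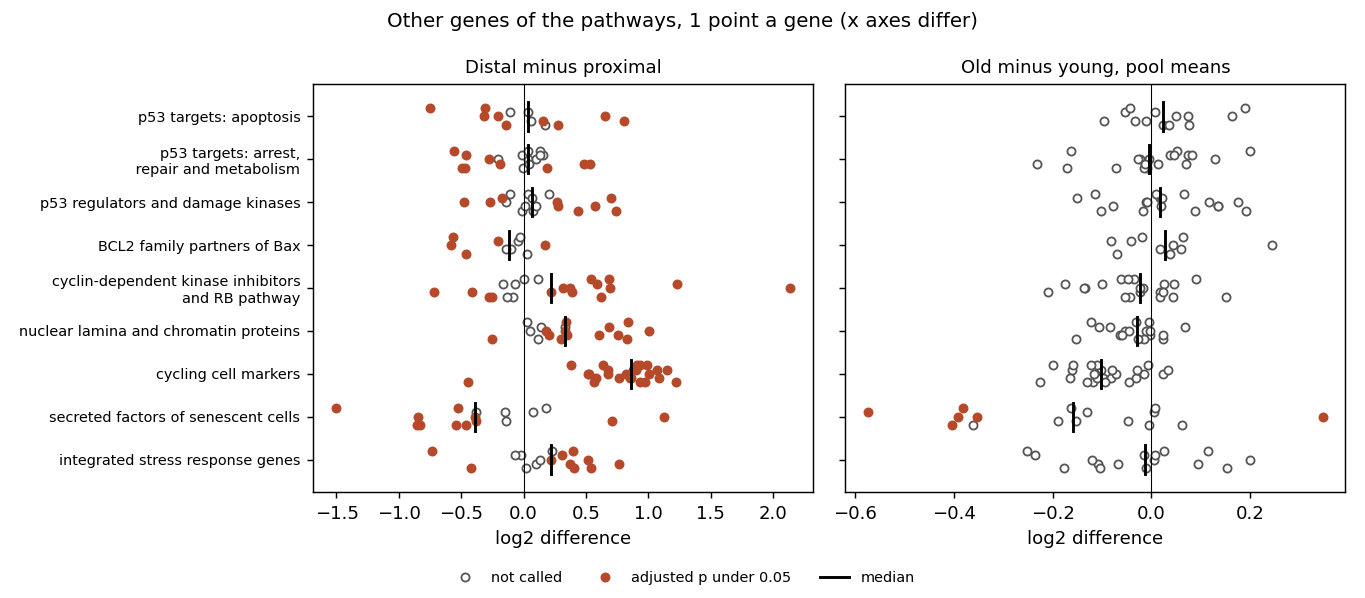
Log2 differences (x axis) of the genes of 9 lists (y axis), distal minus proximal on the left and old minus young over the pool means on the right, 1 point per gene, filled where the limma adjusted p is under 0.05, with a bar at the list's median. On the left nearly all cycling cell markers lie above 0 and p53 targets lie on both sides, and on the right filled points occur among the secreted factors alone.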

How the data were processed

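RNA of the small intestine was hybridised to 12 Affymetrix Mouse Gene 1.0 ST arrays. The deposited values are log2 intensities that the authors computed with RMA (background correction, quantile normalization and probe set summary). The RMA version is not given in the sources used here. The deposited table held 35556 probe sets, of which 21789 listed 1 gene symbol in the platform annotation, 1621 several and 12146 none. Array medians were 5.57 to 5.70. Depth does not apply, and the number of arrays limits the precision.

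The filter required an intensity above 50 on 1 array or more. With 26 acinar pancreas genes taken out, 11922 genes were tested. limma 3.58.1 in R 4.3.3 (statmod 1.5.0) was fitted in 3 ways: segments with the pool as a term (6 residual degrees of freedom), age and diet within each segment (3), and age and diet on the pool means (1). The segments are paired by pool, since they came from the same mice. Within a segment, age and diet have no replicate of their own, so that an interaction adds to the error. P-values were adjusted by Benjamini-Hochberg over all genes, and an adjusted p under 0.05 counts as called. Intervals use the moderated variance. The residual is what segment and pool leave over in the first fit, and the departure from additive age and diet in the others. With 1 pool for each age and diet, no interval measures the spread between like pools or between mice. Each fit was also run on simulated arrays with independent noise around each gene's mean. These held no pool effect and no interaction of age and diet, so that the run cannot show how such effects bear on the fits.

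The members and gene lists were chosen with earlier results of these data known. Of each list, genes past the test and the 4 with the largest differences could be named, and for likeness the 3 genes with the highest Pearson correlation. Bcl2, Cdk4, Cdk6, Cdkn2c, Cdkn1c, Lmnb2, Banf1, Rrm2, Csf2 and Igfbp5 (age), Gtse1 and Atm (age) were named beyond this rule after their values were seen. Promoter windows came from the RefSeq annotation, and the set of windows held 4 of the 5 measured members. Alternatives covered the filter, scaling, probe set choice, variance model, pancreas genes, pool block, and arrays or segments left out. Python 3.11.15 with pandas 2.3.3 and numpy 2.4.6 did the rest.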

Additional observations from a re-analysis of the deposited data

How the results depend on the processing

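The number of members called was the same under every alternative, except with an intensity trend and robust variance. With it the diet contrast in the middle segment called 1 member, Cdkn2b, and distal minus proximal called 4 in place of 3, the added one being Ccng1 (limma adjusted p = 0.0468). The segments are paired by pool, and the fit with no replicate block called the same 3 members in each comparison of segments. Several differences close to 0, none past the test, changed sign. Quantile normalization gave -0.0065 (proximal) and -0.0071 (middle) for Ccng1 with age, -0.0039 for Mdm2 with age over the pool means, -0.059 (distal minus middle) and -0.060 (distal minus proximal) for Cdkn2a, and 0.10 (distal minus middle) and 0.054 (distal minus proximal) for Ccng1. Centring gave -0.0089 for Ccng1 with age in the middle and 0.0066 for Mdm2 with diet in the distal segment. Over the pool means Mdm2 gave -0.0175 with age without the distal segment and -0.0053 with diet without the proximal segment.

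With each array left out in turn, 15 differences took both signs. For age they were Ccng1 proximal (-0.045 to 0.053), Cdkn2a proximal (-0.035 to 0.15), middle (-0.25 to 0.0039) and distal (-0.23 to 0.037), Cdkn2b distal (-0.014 to 0.031), Lmnb1 distal (-0.080 to 0.056) and Mdm2 proximal (-0.071 to 0.063). For diet they were Cdkn2a proximal (-0.058 to 0.13) and middle (-0.041 to 0.21), Lmnb1 distal (-0.062 to 0.073), and Mdm2 proximal (-0.035 to 0.10) and distal (-0.078 to 0.033). For segments they were Cdkn2a distal minus middle (-0.045 to 0.073), distal minus proximal (-0.046 to 0.071) and middle minus proximal (-0.062 to 0.059). The background moved more: age over the pool means called 347 genes, against 86 without the intensity filter, 199 after quantile normalization, 702 with the trend, 84 without the distal and 218 without the middle segment. Diet over the pool means called 679 genes, against 187 without the filter, 1430 with the trend, 451 without the distal and 132 without the middle segment. Within segments the trend raised the calls for diet to 235 against 38 (proximal), 858 against 303 (middle) and 435 against 63 (distal), and for age to 77 against 13, 30 against 3 and 451 against 78. Without the filter they were 152 (middle) and 36 (distal) for diet, and 2, 1 and 31 for age. Over an intensity of 100 they were 95, 507 and 117 for diet and 7 for age in the middle segment. With the 4 arrays of a segment alone they were 16 (proximal) and 491 (middle) for diet, and 0 and 19 for age. With each array left out they were 13 to 41, 26 to 267 and 9 to 61 for diet, and 0 to 4, 0 to 8 and 1 to 66 for age. Signals near 50, as for Cdkn2a, bound what the arrays can show.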
